A study of Mus musculus with 32 samples.

Results

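Extracellular matrix and wound genes were followed in the right cortex and right striatum of mice after stroke. The set was 41 genes chosen by symbol: collagens, basement membrane proteins, matricellular proteins, small proteoglycans, crosslinking enzymes, the urokinase system, annexins and S100 proteins. Probes were taken by their target name on the array, with Ccn2 listed under its older symbol CTGF. This found 49 probes for 38 of the 41 genes. No probe matched the rule for Fn1 or Lama5, and Lamb1 was listed only under an older symbol, through 1 probe detected on 0 of 32 arrays, so these 3 genes are not analysed here. Of the 38 genes, 27 passed the filter for detection, and these are the ones tested, among 9475 genes in all.

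RNA was measured on Illumina MouseRef-8 V2 bead arrays, which report each transcript as the brightness of a matching bead. Tissue came from mice labelled Gpx1-/- (C57/Bl6, 8 to 10 weeks old), which by that label lack glutathione peroxidase 1 throughout the body, and every group, sham included, carries that label. The groups were sham surgery, in which mice had only anaesthesia and a neck incision, and 2 h of middle cerebral artery occlusion by a suture followed by 2, 8 or 24 h of reperfusion, in each region with 4 arrays per group, 32 in all. No wild-type array is among the samples used here, and one protocol field speaks of male WT mice although every other label gives Gpx1-/-. Nothing in the labels says whether the cortex and striatum arrays came from the same animals, and where replicates are not separate animals, p-values measure only the spread between these samples.

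The matrix of the healthy brain is rich in proteoglycans, while fibrous collagens and laminins lie mainly in the basement membrane of blood vessels and in the meninges. After injury, tissues make a provisional matrix: matricellular proteins change how cells attach, crosslinking enzymes bind matrix proteins together, and plasmin made at the cell surface cuts matrix and clot. Annexin A2 and S100A10 form a complex that binds plasminogen, and the urokinase receptor holds the enzyme that activates it.

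Raw signal had a median between 60.1 and 92.4 per array. Each array detected between 10701 and 11935 of its 25697 probes (41.6% to 46.4%). Gpx1 itself was detected on 4 of 4 arrays in every group, which without wild-type arrays does not check the label. Of 8 cortical markers tested, 6 were lower in sham striatum than in sham cortex, but of 7 striatal markers Tac1 alone passed as higher, and Drd1 differed by 0.20 between sham striatum and sham cortex (adjusted p = 0.762). By the codes of the arrays, same-numbered replicates of a region shared a slide, so the slide was tried as a block. Each group had its own position on the slides, and position and group cannot be told apart. No slide held arrays of both regions, so in sham striatum against sham cortex, region and slide cannot be told apart either. Cortex 24 h replicate 1 and cortex 8 h replicate 4 had the lowest medians of the set in their groups (0.08 and 0.06 above sham). For the set, changes against sham of at least 1 and calls against sham that rest on their groups are given with and without them. Changes of related genes and of markers are given with all arrays only. These low arrays were picked after seeing the data, and most called rises come out larger without them. Array weights over all genes, lower for a noisier array, were 0.44 and 0.61 on them. Cortex 24 h replicate 2 had 0.44, cortex 8 h replicate 1 had 0.42 and striatum 24 h replicate 2 had 0.4, so the weights did not single them out. Below, a level is a background-corrected, quantile-normalized log2 signal. A change is a difference of group means in log2 units with its standard error (SE) from limma. Except as follows, an adjusted p is a Benjamini-Hochberg value from limma across the 9475 genes. Second probes were adjusted across the 12758 probes that passed the filter for detection. Values without the detection filter were adjusted across all 17877 gene names. A change passed at an adjusted p under 0.05.

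At 24 h genes of the set rose in both regions, and at 2 h 1 gene passed, in striatum. In striatum at 24 h, 19 of 27 genes passed as higher, 1 of them (Col5a1) with no array of either group above background, and 1 fell, against a background of 14.7% of all genes higher and 16.2% lower (30.9% in either direction). In cortex at 24 h, 13 rose and 1 fell, against 15.7% higher and 17.6% lower (33.3% in either direction). The cortical count was 14 higher without 24 h replicate 1, where 17.2% of all genes were higher. The median change of the 27 was 0.95 in striatum and 0.54 in cortex (0.52 without that array), while over all genes it was -0.03 and -0.01. These 27 passed the filter partly through the groups in which they were bright, so their shares and medians are descriptions only.

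Earlier, at 8 h, 8 of 27 rose and 1 fell in striatum (background 25.2%, with 12.4% higher and 12.8% lower), and 6 rose and 1 fell in cortex (background 20.2%, with 9.58% higher and 10.6% lower). The median change was 0.36 in striatum and 0.25 in cortex. At 2 h only Ccn2 rose in striatum, 1 of 27 against 6.3% of all genes called (3.49% higher, 2.81% lower). In cortex at 2 h 0 of 27 passed (background 4.65%, with 2.21% higher and 2.45% lower), where 3 had an unadjusted p under 0.05, as did 21.4% of all genes. The 8 h count in striatum depended on single arrays: it was 5 without sham replicate 1, 5 without sham replicate 2, 4 without sham replicate 3, 5 without 8 h replicate 1 and 3 without 8 h replicate 3. With the authors' processed values it was 7, of which 5 were higher. The cortical 8 h count was 4 without sham replicate 1, and the striatal 2 h count was 3 without sham replicate 4 or with the slide as a block. The block called 8.2% of all genes there. The shares of all genes under the other alternatives are not given here, so these moves cannot be read as particular to the set.

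**Figure D1:**
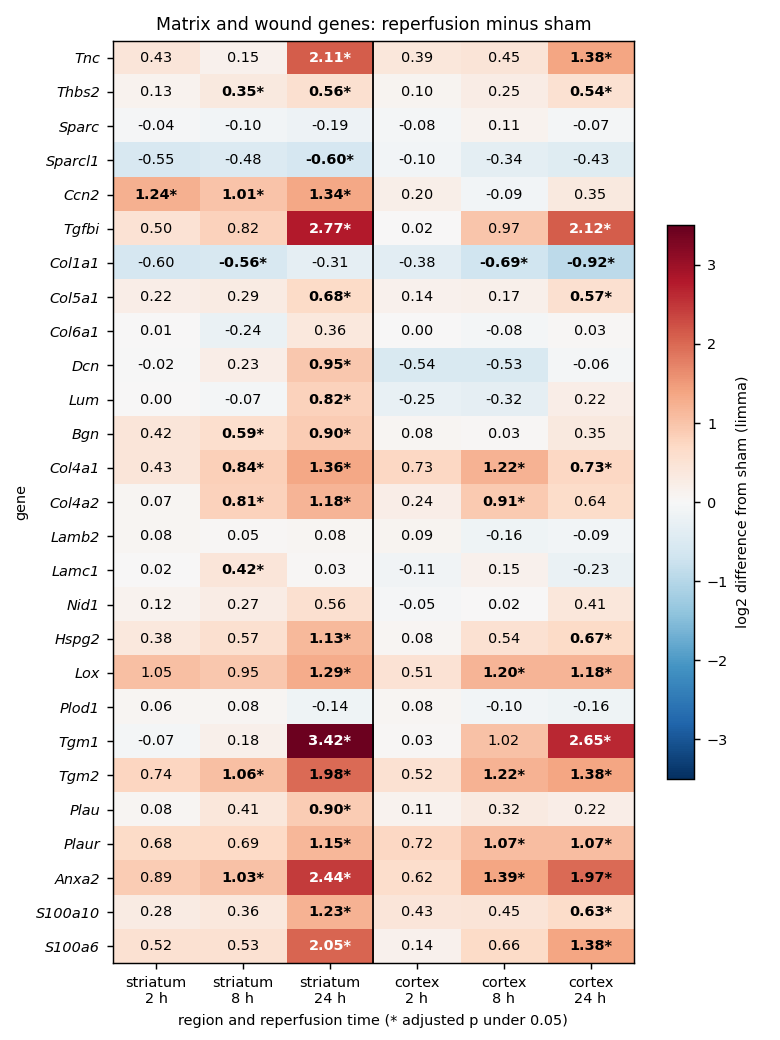
Change of each of the 27 tested genes against sham of its own region, in log2 units, by region and reperfusion time; genes run down the page by role, red is higher and blue lower than sham, and an asterisk marks an adjusted p under 0.05. The columns for 24 h hold most of the asterisks, 20 in striatum and 14 in cortex, against 1 and 0 at 2 h.

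Tgfbi encodes a secreted matrix protein induced by TGF-beta that binds collagen and integrins. Its level at 24 h was 8.90, 10.79, 9.26 and 9.90 on the 4 striatal arrays, against 7.15, 6.79, 6.94 and 6.87 in sham striatum. Cortical levels were 6.88, 9.45, 8.67 and 9.50 at 24 h, against 6.68, 6.36, 6.62 and 6.35 in sham. All 24 h arrays of both regions lay above all sham arrays, with cortex replicate 1 only just so. Tgfbi rose 6.84-fold in striatum (log2 2.77 ± 0.39, adjusted p = 1.09e-05) and 4.35-fold in cortex (log2 2.12 ± 0.39, adjusted p = 0.000193). Without cortex 24 h replicate 1 the cortical change was 2.70 (adjusted p = 4.36e-07). Its second probe gave 2.50 in striatum and 1.67 in cortex. At 8 h the level was 7.49, 8.12, 7.97 and 7.46 in striatum and 8.16, 7.75, 7.38 and 6.60 in cortex, and the changes of 0.82 and 0.97 did not pass (adjusted p = 0.124 and 0.0781). Without cortex 8 h replicate 4 the cortical change at 8 h passed (1.26, adjusted p = 0.0266).

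Tnc encodes tenascin-C, a glycoprotein of wounds and development that is scarce in adult tissue. In striatum its level was 6.79, 8.68, 7.17 and 7.61 at 24 h, against 5.64, 5.58, 5.41 and 5.21 in sham, where 1 of 4 arrays detected it. The cortical arrays gave 5.12, 7.31, 6.30 and 7.11 at 24 h, against 5.05, 5.06, 5.17 and 5.03 in sham, where 0 of 4 detected it. The striatal groups did not overlap, while cortex 24 h replicate 1 lay inside the sham range. Tnc rose by 2.11 ± 0.35 (adjusted p = 6.33e-05) in striatum, or 4.31-fold, a value that rests in part on background, and at least 1.60-fold in cortex (fitted log2 1.38 ± 0.35, adjusted p = 0.00351). Without cortex 24 h replicate 1 the fitted cortical change was 1.82 (adjusted p = 5.48e-05). A second probe gave 1.91 and 1.07 at 24 h (adjusted p = 6.4e-05 in striatum and 0.011 in cortex, over all probes), and the other 4 of its 6 probes were detected on 0 arrays.

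Thbs2 encodes thrombospondin 2, a matricellular protein that restrains vessel growth. Its mean level was 7.11 ± 0.25 in striatum at 24 h and 6.55 ± 0.11 in sham (SD, n = 4 each). The cortical means were 6.77 ± 0.06 at 24 h and 6.23 ± 0.07 in sham (SD, n = 4 each). The arrays did not overlap in either region. It rose by 0.56 ± 0.13 (adjusted p = 0.00126) in striatum and by 0.54 ± 0.13 (adjusted p = 0.0017) in cortex, or by 0.56 without cortex 24 h replicate 1 (adjusted p = 0.0023). At 8 h it rose in striatum, by 0.35 ± 0.13 (adjusted p = 0.0399), a call lost under 9 alternatives, among them the authors' values (0.15, adjusted p = 0.244). The cortical change at 8 h was 0.25 and did not pass (adjusted p = 0.165).

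Ccn2, known also as connective tissue growth factor, encodes a matricellular protein and is a standard target of YAP and TEAD and of TGF-beta signalling. In striatum its level was 8.67, 8.80, 9.04 and 9.28 in sham, 10.38, 9.97, 10.04 and 10.35 at 2 h, 9.87, 9.66, 9.98 and 10.33 at 8 h and 10.26, 10.70, 9.96 and 10.21 at 24 h. All 12 striatal reperfusion arrays lay above all 4 sham arrays. The rise was 1.24 ± 0.16 (adjusted p = 4.89e-05) at 2 h, 1.01 ± 0.16 (adjusted p = 7.11e-05) at 8 h and 1.34 ± 0.16 (adjusted p = 8.62e-07) at 24 h. Ccn2 was the only one of the 27 genes to pass in striatum at 2 h.

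In cortex the level of Ccn2 was 10.53, 10.34, 10.45 and 10.57 in sham, 10.62, 10.67, 10.71 and 10.70 at 2 h, 10.29, 10.53, 10.41 and 10.30 at 8 h and 10.73, 11.21, 10.45 and 10.88 at 24 h. These changes were 0.20, -0.09 and 0.35 and did not pass (adjusted p = 0.475, 0.735 and 0.0848), although 24 h passed with each region fitted alone (0.34, adjusted p = 0.047) and without cortex 24 h replicate 3 (0.47, adjusted p = 0.0278). Sham striatum lay below sham cortex, with a difference of -1.52 ± 0.16 (adjusted p = 9.03e-09). The striatal response exceeded the cortical one by 1.03 at 2 h (95% interval 0.58 to 1.48), 1.10 at 8 h (0.65 to 1.55) and 0.99 at 24 h (0.54 to 1.44), which did not pass over all genes (adjusted p = 0.233, 0.114 and 0.106). With same-numbered cortex and striatum arrays treated as one animal these differences passed (adjusted p = 0.0389, 0.0142 and 0.0149). They also passed at 8 h without striatal sham replicate 4 (0.0376) or striatal 8 h replicate 2 (0.032), and at 24 h without striatal sham replicate 4 (0.0437) or striatal 24 h replicate 3 (0.0457).

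Sparc, a collagen-binding matricellular protein made by glia and vessel cells, had the largest difference between the sham regions among the 27 genes and no called change after reperfusion. Its level in sham was 12.41, 12.35, 12.24 and 12.31 in striatum, against 10.32, 10.29, 10.19 and 10.24 in cortex. Sham striatum was 4.19-fold above sham cortex (log2 2.07 ± 0.15, adjusted p = 1.17e-11), and its second probe gave 2.30. Across the 6 comparisons with sham the change ran from -0.19 to 0.11, with adjusted p of 0.342 or above. The second probe passed in cortex at 8 h (0.50, adjusted p = 0.0414 over all probes), and the authors' processed values gave a fall in striatum at 24 h (-0.45, adjusted p = 0.0101, where the median of all genes was -0.18).

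Sparcl1, a related protein secreted by astrocytes that promotes synapses, fell. In striatum its level was 8.83, 8.33, 9.06 and 8.93 at 24 h, against 9.45, 9.30, 9.81 and 9.0 in sham, and 1 array at 24 h lay within the sham range. The change was -0.60 ± 0.19 (adjusted p = 0.0163) and did not pass without sham replicate 3 (-0.46, adjusted p = 0.0843) or 24 h replicate 2 (-0.45, adjusted p = 0.0924). In the other 5 comparisons with sham the change lay between -0.10 and -0.55 and did not pass. With the slide as a block Sparcl1 also passed in striatum at 2 h (-0.55, adjusted p = 0.0163) and 8 h (-0.48, adjusted p = 0.0108) and in cortex at 24 h (-0.43, adjusted p = 0.0154).

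**Figure D2:**
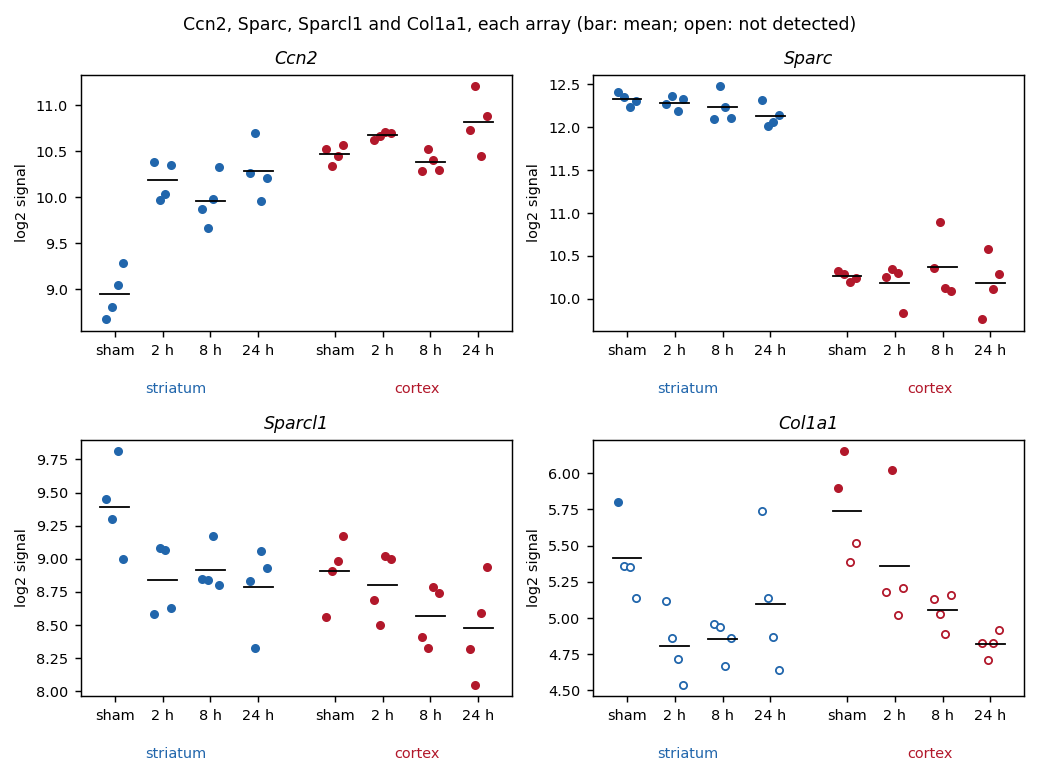
Log2 signal of Ccn2, Sparc, Sparcl1 and Col1a1 on each of the 32 arrays, by region and time, with a bar at the mean of each group and open circles where the probe was not detected. The striatal Ccn2 arrays after reperfusion sit at 9.66 to 10.70, all above the sham arrays, and Sparc is parted by region at every time.

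The fibrous collagens of scar and connective tissue were mostly too dim to measure. Col1a2 and Col3a1, partners in type I and type III collagen fibres, were detected on 0 of 32 arrays, as was Col5a2. Col1a1, the main chain of type I collagen, was detected on 4 of 32 arrays, and its level at 24 h in cortex was 4.83, 4.71, 4.83 and 4.92, against 5.90, 6.15, 5.39 and 5.52 in sham. No reperfusion array of cortex at 24 h detected it, so its fall, a change of -0.92 ± 0.20 (adjusted p = 0.00106), ended near background and has no fold. At 8 h it also passed as lower, with a fitted change of -0.56 ± 0.20 (adjusted p = 0.0424) in striatum and -0.69 ± 0.20 (adjusted p = 0.0173) in cortex. In striatum 1 of 4 sham arrays and 0 of 4 at 8 h detected it, and in cortex 2 of 4 and 0 of 4. Both changes thus lie largely at background. The striatal call was lost under 9 alternatives, including scaling to the 75th percentile (-0.35, adjusted p = 0.185), and the cortical 8 h call without sham replicate 1 (adjusted p = 0.0511), sham replicate 2 (0.0815) or 8 h replicate 3 (0.0565). The cortical change was -0.92 at 24 h without replicate 1 (adjusted p = 0.00179) and -0.72 at 8 h without replicate 4 (0.0205).

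Col5a1, a collagen that sets the width of type I fibres, rose in cortex at 24 h at least 1.12-fold (fitted log2 0.57 ± 0.13, adjusted p = 0.00115), or by 0.52 without 24 h replicate 1 (adjusted p = 0.00372). In striatum its fitted change of 0.68 passed (adjusted p = 0.000219), but it was not above background on any array of either group, so no rise was measured there. The probes of Col6a1, a beaded collagen found around cells, disagreed. The brighter one, used here, gave 0.36 in striatum and 0.03 in cortex at 24 h and did not pass. The dimmer one gave 1.02 in striatum (adjusted p = 0.00204 over all probes) and 0.77 in cortex (adjusted p = 0.0153). Its partner Col6a2 was detected on 2 of 32 arrays.

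The small leucine-rich proteoglycans decorin (Dcn), lumican (Lum) and biglycan (Bgn) coat collagen fibres and bind growth factors. All 3 rose in striatum at 24 h. The mean level of Dcn was 10.99 ± 0.20 at 24 h and 10.04 ± 0.25 in sham (SD, n = 4 each), a rise of 0.95 ± 0.25 (adjusted p = 0.00471), and its second probe gave 1.17. Lum averaged 6.94 ± 0.69 at 24 h and 6.12 ± 0.22 in sham (SD, n = 4 each), and its rise of 0.82 ± 0.26 (adjusted p = 0.0157) was lost without 24 h replicate 2 (0.52, adjusted p = 0.116). Bgn rose by 0.90 ± 0.17 (adjusted p = 0.000305) at 24 h and by 0.59 ± 0.17 (adjusted p = 0.0134) at 8 h, with no overlap of arrays at either time. The 8 h call was lost with the authors' values (0.35, adjusted p = 0.0607). In cortex at 24 h the changes were -0.06 for Dcn, 0.22 for Lum and 0.35 for Bgn, and none passed (adjusted p = 0.889, 0.551 and 0.115). The difference between regions was 1.01 for Dcn (95% interval 0.29 to 1.73, adjusted p = 0.373), 0.60 for Lum and 0.54 for Bgn, and none passed.

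Among basement membrane genes, both chains of type IV collagen, its sheet-forming collagen, rose in each region at 8 h. Col4a1 in cortex was 7.82, 8.22, 7.67 and 7.74 in sham, 8.82, 8.56, 8.67 and 8.30 at 2 h, 9.29, 9.57, 9.06 and 8.41 at 8 h and 7.94, 9.31, 8.25 and 8.87 at 24 h. All cortical arrays at 2 h and 8 h lay above all sham arrays, and at 24 h replicate 1 did not. The change was 0.73 at 2 h (adjusted p = 0.0894), 1.22 ± 0.26 (adjusted p = 0.00178) at 8 h and 0.73 ± 0.26 (adjusted p = 0.028) at 24 h. The last call was lost without sham replicate 1 (adjusted p = 0.0567), sham replicate 3 (0.071), sham replicate 4 (0.0629), 24 h replicate 2 (0.158) or 24 h replicate 4 (0.0899) and without the detection filter (0.0573), and without 24 h replicate 1 it was 0.95 (adjusted p = 0.00484). Without 8 h replicate 4 the change at 8 h was 1.45 (adjusted p = 0.000472).

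In striatum Col4a1 was 7.81, 7.63, 7.54 and 7.35 in sham, 7.96, 8.23, 7.96 and 7.92 at 2 h, 8.38, 8.45, 8.81 and 8.05 at 8 h and 8.54, 9.56, 8.42 and 9.25 at 24 h. No reperfusion array of striatum overlapped the sham arrays. It rose by 0.84 ± 0.26 (adjusted p = 0.0164) at 8 h and 1.36 ± 0.26 (adjusted p = 0.000243) at 24 h, and the 8 h call was lost without 8 h replicate 3 (0.71, adjusted p = 0.0675). The change of 0.43 at 2 h did not pass (adjusted p = 0.308).

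Col4a2 lies head to head with Col4a1: in the RefSeq promoter table (build GRCm38.p6) their annotated starts on chromosome 8, at 11312805 on the plus strand for Col4a2 and 11312826 on the minus strand for Col4a1, are 21 bases apart. By these positions each gene reads across the start of the other, so the annotated transcripts overlap there and no gap parts them. For Col4a2 the signal was as follows. At 8 h the level of Col4a2 was 8.81, 9.22, 8.62 and 8.06 in cortex, against 8.05, 8.04, 7.70 and 7.27 in sham. At 24 h in striatum it was 8.61, 9.46, 8.09 and 8.76, against 7.85, 7.54, 7.38 and 7.43 in sham. Neither pair of groups overlapped. Col4a2 rose by 0.81 ± 0.26 (adjusted p = 0.0205) in striatum at 8 h, by 0.91 ± 0.26 (adjusted p = 0.0134) in cortex at 8 h and by 1.18 ± 0.26 (adjusted p = 0.000937) in striatum at 24 h. In cortex at 24 h the change was 0.64 and did not pass (adjusted p = 0.0543), but it passed with the slide as a block (adjusted p = 0.0279). The cortical 8 h call was lost without sham replicate 4 (adjusted p = 0.0555) or 8 h replicate 2 (0.0564), and the striatal 8 h call without sham replicate 3 (0.0589), 8 h replicate 2 (0.0538) or 8 h replicate 3 (0.0582) and with the authors' values (0.0535). Without cortex 8 h replicate 4 the cortical change at 8 h was 1.12 (adjusted p = 0.00365).

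Hspg2 encodes perlecan, the heparan sulphate proteoglycan of basement membranes. Its level was 6.79, 7.59, 6.80 and 7.32 in striatum at 24 h, against 5.71, 6.04, 6.05 and 6.17 in sham, with no overlap. In cortex it was 6.00, 7.44, 6.66 and 6.34 at 24 h, against 5.84, 5.81, 6.37 and 5.74 in sham, with overlap. It rose by 1.13 ± 0.23 (adjusted p = 0.000508) in striatum and by 0.67 ± 0.23 (adjusted p = 0.0257) in cortex. The cortical call was lost without 24 h replicate 2 (0.39, adjusted p = 0.176), 24 h replicate 3 (adjusted p = 0.0523) or any of sham replicates 1, 2 and 4 (adjusted p = 0.0603, 0.0667 and 0.0699), without the detection filter (0.0521) and with each region fitted alone (0.0639). The cortical change was 0.87 without 24 h replicate 1 (adjusted p = 0.00389).

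The laminin and nidogen genes, whose products link the collagen sheet to cells, stayed mostly below the threshold. Lamb2 changed by -0.16 to 0.09 across the 6 comparisons with sham, with adjusted p of 0.502 or above. Lamc1 passed once, in striatum at 8 h (0.42 ± 0.15, adjusted p = 0.0405), where the arrays overlapped and 9 alternatives lost the call. Nid1 changed by 0.56 in striatum and 0.41 in cortex at 24 h without passing (adjusted p = 0.0968 and 0.225), and passed in striatum without 24 h replicate 3 (0.84, adjusted p = 0.0111). Lama4 was detected on 0 arrays.

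Transglutaminases, which join proteins by bonds between glutamine and lysine, included the gene with the largest fitted log2 change of the set, one measured against background in sham. Tgm1, best known as the enzyme that crosslinks the outer layer of skin, was at 7.60, 8.88, 7.69 and 8.42 in striatum at 24 h, against 4.80, 4.63, 4.81 and 4.66 in sham. Cortical arrays gave 5.27, 8.15, 7.73 and 8.16 at 24 h, against 4.72, 4.50, 4.64 and 4.85 in sham. None of the 8 sham arrays detected it, all 4 striatal arrays and 3 of 4 cortical arrays at 24 h did, and cortex replicate 1 lay above the sham arrays but was not detected. Tgm1 rose at least 5.58-fold in striatum (fitted log2 3.42 ± 0.39, adjusted p = 7.66e-07) and at least 2.93-fold in cortex (fitted log2 2.65 ± 0.39, adjusted p = 1.93e-05). These bounds lie below the measured folds of Tgfbi, so the order of the genes is not settled. Without cortex 24 h replicate 1 the fitted cortical change was 3.34 (adjusted p = 7.11e-10).

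Before 24 h Tgm1 was at or near background on most arrays. At 2 h its level was 4.56, 4.71, 4.64 and 4.69 in striatum and 4.83, 4.67, 4.64 and 4.69 in cortex, with 0 of 8 arrays detected. At 8 h it was 5.16, 5.01, 4.77 and 4.66 in striatum, with 0 of 4 detected, and 6.01, 6.52, 5.39 and 4.88 in cortex, with 2 of 4 detected. The changes at 8 h were 0.18 in striatum and 1.02 in cortex and did not pass (adjusted p = 0.775 and 0.0633). The cortical one passed without 8 h replicate 4 (1.30, adjusted p = 0.0246), and also with scaling to the 75th percentile (1.19, adjusted p = 0.0305), the authors' values (0.73, adjusted p = 0.046) and array weights (1.05, adjusted p = 0.0158).

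Tgm2 encodes tissue transglutaminase, the widely expressed enzyme that crosslinks fibronectin and other matrix proteins. In striatum it was at 8.16, 7.76, 8.11 and 7.97 in sham, 8.74, 8.64, 8.71 and 8.84 at 2 h, 9.02, 9.16, 9.50 and 8.57 at 8 h and 9.52, 10.48, 9.61 and 10.32 at 24 h. The cortical levels were 8.04, 7.91, 8.22 and 7.73 in sham, 8.58, 8.20, 8.73 and 8.45 at 2 h, 9.33, 9.53, 9.36 and 8.56 at 8 h and 8.19, 9.98, 9.48 and 9.76 at 24 h. The striatal reperfusion arrays all lay above sham, while 1 cortical array at 2 h and 1 at 24 h fell within the sham range. Tgm2 rose by 1.06 ± 0.27 (adjusted p = 0.00534) at 8 h and 1.98 ± 0.27 (adjusted p = 7.05e-06) at 24 h in striatum, and by 1.22 ± 0.27 (adjusted p = 0.00267) at 8 h and 1.38 ± 0.27 (adjusted p = 0.000364) at 24 h in cortex. Without cortex 24 h replicate 1 the last value was 1.77 (adjusted p = 1.31e-06), and without cortex 8 h replicate 4 the cortical 8 h value was 1.44 (0.000876). The 2 h changes were 0.74 in striatum and 0.52 in cortex and did not pass (adjusted p = 0.0954 and 0.271).

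Lox encodes lysyl oxidase, which crosslinks collagen and elastin. In striatum it was at 5.78, 6.69, 5.17 and 6.75 at 24 h, against 4.78, 4.75, 4.92 and 4.76 in sham. Cortical Lox was at 6.57, 6.05, 5.69 and 5.74 at 8 h and 5.28, 7.14, 4.73 and 6.83 at 24 h, against 4.70, 4.87, 4.90 and 4.77 in sham. None of the 8 sham arrays detected it, and 3 of 4 striatal and 2 of 4 cortical arrays did at 24 h. It rose at least 1.35-fold in striatum at 24 h (fitted log2 1.29 ± 0.37, adjusted p = 0.00927), at least 1.18-fold in cortex at 8 h (fitted log2 1.20 ± 0.37, adjusted p = 0.0232) and at least 1.16-fold in cortex at 24 h (fitted log2 1.18 ± 0.37, adjusted p = 0.0156). The cortical 24 h call was lost with array weights (0.61, adjusted p = 0.132) and without 24 h replicate 2 (adjusted p = 0.105) or replicate 4 (0.0838). The cortical 8 h call was lost without sham replicate 1 (adjusted p = 0.0532) or 8 h replicate 1 (0.0763) and with each region fitted alone (0.0535). The fitted cortical change at 24 h was 1.42 without 24 h replicate 1 (adjusted p = 0.00541), and without cortex 8 h replicate 4 that at 8 h was 1.29 (0.0244). Of the lysine hydroxylases that prepare collagen for these bonds, Plod1 changed by -0.16 to 0.08 across the 6 comparisons with sham and did not pass, and Plod2 was detected on 2 of 32 arrays.

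Anxa2, S100a10, Plaur and Plau, the 4 genes of pericellular plasmin formation in the set, all rose in striatum at 24 h. Anxa2, the plasminogen-binding annexin, was at 9.20, 9.0, 9.07 and 9.12 in sham striatum, 9.94, 9.80, 9.99 and 10.22 at 2 h, 10.16, 10.30, 10.66 and 9.39 at 8 h and 10.80, 12.46, 11.21 and 11.69 at 24 h. In cortex it was at 8.86, 8.87, 8.88 and 8.67 in sham, 9.36, 9.17, 9.87 and 9.36 at 2 h, 10.84, 10.76, 10.27 and 8.99 at 8 h and 9.45, 11.62, 10.63 and 11.47 at 24 h. Every reperfusion array of either region lay above every sham array of that region. The rise passed at 8 h, by 1.03 ± 0.38 (adjusted p = 0.0443) in striatum and 1.39 ± 0.38 (adjusted p = 0.0106) in cortex, and at 24 h, by 2.44 ± 0.38 (adjusted p = 2.99e-05) in striatum and 1.97 ± 0.38 (adjusted p = 0.000271) in cortex (5.43-fold and 3.93-fold). Without cortex 24 h replicate 1 the cortical change at 24 h was 2.42 (adjusted p = 6.42e-06), and without cortex 8 h replicate 4 that at 8 h was 1.80 (0.00111). At 2 h the changes were 0.89 in striatum and 0.62 in cortex and did not pass (adjusted p = 0.146 and 0.352). The striatal 8 h call was lost with the slide as a block (adjusted p = 0.0569) and under 10 other alternatives, and kept without 8 h replicate 4, the lowest array.

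S100a10 encodes the partner of annexin A2 in that complex. Its level was 8.22, 9.58, 8.82 and 8.80 in striatum at 24 h, against 7.57, 7.52, 7.77 and 7.64 in sham, with no overlap. In cortex it was 7.44, 8.73, 8.37 and 8.65 at 24 h, against 7.52, 7.44, 7.91 and 7.83 in sham, and replicate 1 did not exceed sham. It rose by 1.23 ± 0.24 (adjusted p = 0.000356) in striatum. The cortical change of 0.63 ± 0.24 (adjusted p = 0.0455) passed only narrowly: it was 0.91 without 24 h replicate 1 (adjusted p = 0.00199), and the call was lost without 24 h replicate 2 (adjusted p = 0.171), 3 (0.0877) or 4 (0.15), without sham replicate 1 (0.104), 2 (0.126) or 4 (0.0531), with the authors' values (0.46, 0.0802) and without the detection filter (0.0892).

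Plaur encodes the urokinase receptor. In striatum it was at 6.08, 6.92, 5.96 and 6.40 at 24 h, against 5.18, 5.02, 5.12 and 5.45 in sham. Cortical Plaur was at 6.72, 6.69, 6.22 and 5.30 at 8 h and 5.20, 7.51, 5.63 and 6.60 at 24 h, against 5.10, 5.23, 5.07 and 5.25 in sham. None of the 8 sham arrays detected it, and all 4 striatal arrays at 24 h did. The rise was at least 1.60-fold in striatum at 24 h (fitted log2 1.15 ± 0.33, adjusted p = 0.00894), at least 1.37-fold in cortex at 8 h (fitted log2 1.07 ± 0.33, adjusted p = 0.0229) and at least 1.37-fold in cortex at 24 h (fitted log2 1.07 ± 0.33, adjusted p = 0.0138). The cortical 24 h call was lost without 24 h replicate 2 (0.65, adjusted p = 0.108) or replicate 4 (0.95, adjusted p = 0.0518), and the 8 h call without 8 h replicate 1 (adjusted p = 0.0756), 2 (0.0726) or 3 (0.0511) or sham replicate 1 (0.0508), and with each region fitted alone (1.08, 0.0662). At 24 h the fitted cortical change was 1.42 without 24 h replicate 1 (adjusted p = 0.000974), and without cortex 8 h replicate 4 that at 8 h was 1.38 (0.004).

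Plau, urokinase itself, rose in striatum at 24 h by at least 1.09-fold (fitted log2 0.90 ± 0.27, adjusted p = 0.0118), with 2 of 4 arrays at 24 h and 0 of 4 sham arrays detecting it. That call was lost without 24 h replicate 2 (0.71, adjusted p = 0.067) or replicate 4 (0.71, adjusted p = 0.0593), and in cortex at 24 h the change was 0.22 (adjusted p = 0.572). Of the 9 other plasminogen genes listed, 4 were tested. Of these 0 rose and 2 fell in striatum, and 0 rose and 1 fell in cortex, at 24 h (median change -0.18 and -0.05). Of all genes, 16.2% fell in striatum and 17.6% in cortex at that time. Serpine2, an inhibitor of urokinase and thrombin, fell at 24 h by 0.70 ± 0.10 in striatum (adjusted p = 1.09e-05) and by 0.49 ± 0.10 in cortex (adjusted p = 0.000474), and Serpini1, the neuronal inhibitor of tissue plasminogen activator, fell in striatum by 0.49 ± 0.14 (adjusted p = 0.00996).

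S100a6, a calcium-binding protein of dividing and reactive cells, was at 9.25, 10.87, 9.58 and 10.08 in striatum at 24 h, against 7.94, 7.96, 7.83 and 7.86 in sham. In cortex it was at 8.72, 10.10, 9.49 and 10.28 at 24 h, against 8.16, 8.23, 8.35 and 8.33 in sham. The arrays at 24 h lay above all sham arrays in both regions. S100a6 rose by 2.05 ± 0.27 (adjusted p = 4.52e-06) in striatum (4.14-fold) and by 1.38 ± 0.27 (adjusted p = 0.000361) in cortex (2.60-fold), and by 1.69 in cortex without 24 h replicate 1 (adjusted p = 1.11e-05). At 8 h the changes were 0.53 and 0.66 and did not pass (adjusted p = 0.154 and 0.0799).

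**Figure D3:**
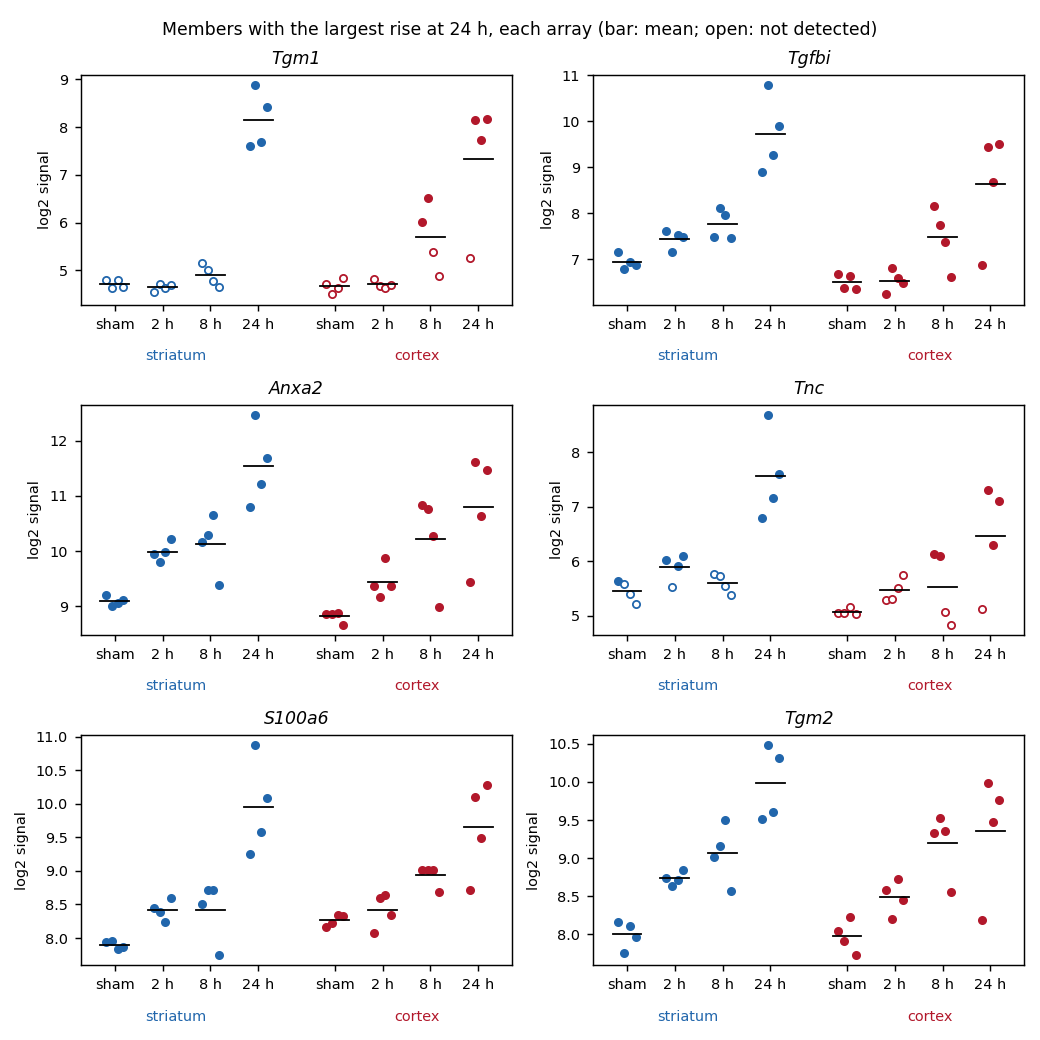
Log2 signal of the 6 genes with the largest rise at 24 h on each of the 32 arrays, by region and time, with a bar at the mean of each group and open circles where the probe was not detected. Cortex 24 h replicate 1 is the lowest of its group in all 6 panels, and Tgm1 is undetected on every sham and 2 h array.

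Promoter sequence was available for 23 of the 38 genes, as 250 bases before an annotated start in RefSeq (build GRCm38.p6). The windows shown hold a motif and belong to genes described above. The AP-1 site TGACTCA, read on both strands, was in 3 of 23 genes (13%), against 5.16% of all genes and 4.46% of all promoters in the table. These were Anxa2, with its first base 95 bases before the start (chr9:69453433-69453682, plus strand), Plaur, 69 bases before (chr7:24462233-24462482, plus strand), and Col6a1, 90 bases before (chr10:76726045-76726294, minus strand). Capitals mark the AP-1 site.
Anxa2: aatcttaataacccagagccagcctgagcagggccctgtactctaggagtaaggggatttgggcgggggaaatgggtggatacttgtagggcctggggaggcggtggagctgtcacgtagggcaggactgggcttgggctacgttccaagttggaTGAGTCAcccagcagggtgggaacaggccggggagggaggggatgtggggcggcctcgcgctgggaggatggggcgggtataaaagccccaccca
Plaur: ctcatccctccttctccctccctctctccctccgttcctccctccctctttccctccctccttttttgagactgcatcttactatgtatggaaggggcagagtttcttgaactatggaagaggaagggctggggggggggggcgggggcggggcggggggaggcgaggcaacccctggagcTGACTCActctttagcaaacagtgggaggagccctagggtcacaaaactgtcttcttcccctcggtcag
Col6a1: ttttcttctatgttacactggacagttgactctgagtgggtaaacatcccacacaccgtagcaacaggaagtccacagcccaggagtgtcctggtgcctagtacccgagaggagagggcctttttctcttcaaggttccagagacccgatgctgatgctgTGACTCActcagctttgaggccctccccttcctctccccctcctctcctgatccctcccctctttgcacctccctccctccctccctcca
Anxa2 and Plaur rose in both regions, and Col6a1 did not pass against sham through the probe used. The site matches the letters of a motif and shows no binding.

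The STAT site TTCNNNGAA, where N is any base, was in 2 of 23 genes (8.7%), against 8.13% of all genes. One is Lamb2 and the other Tgm1, which holds it at 173 and at 64 bases before a start (chr14:55713493-55713742, minus strand), while the window of its other annotated start holds none. Capitals mark the STAT sites.
Tgm1: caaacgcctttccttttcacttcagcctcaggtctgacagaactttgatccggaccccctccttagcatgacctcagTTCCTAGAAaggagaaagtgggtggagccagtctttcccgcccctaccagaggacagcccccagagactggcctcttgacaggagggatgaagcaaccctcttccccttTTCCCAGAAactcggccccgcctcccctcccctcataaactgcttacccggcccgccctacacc
The TEAD site GGAATG was in 4 of 23 genes (17.4%), against 14.4% of all genes, and these were Anxa1, Col3a1, Col6a2 and Nid1. None of these 4 passed in any comparison with sham, and 3 of them did not pass the filter for detection. No promoter sequence was available for Ccn2, so it was not searched for this site.

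The arrays of a group differed in how far the set had risen. At 24 h the median over the 27 genes, set against the average of the region's 4 sham arrays, was 0.79, 1.60, 0.60 and 1.18 on striatal replicates 1 to 4. On the cortical replicates it was 0.08, 0.74, 0.16 and 0.67. Of 27 genes, 9 lay above all sham arrays on cortical replicate 1 and 22 on replicate 2, and between 20 and 23 on the striatal arrays. Of all genes, 31.4% lay above all sham arrays on cortical replicate 1, 35.1% on replicate 2 and 28.6% to 31.1% on the striatal arrays, so the 9 of cortical replicate 1 were close to the share over all genes. At 8 h the median on cortical replicates 1 to 4 was 0.41, 0.38, 0.19 and 0.06. Leaving out cortex 8 h replicate 4 and cortex 24 h replicate 1 together, a choice made after seeing the data, gave 11 genes called in cortex at 8 h, in place of 7, while the share of all genes called was 23.2%, in place of 20.2%.

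**Figure D4:**
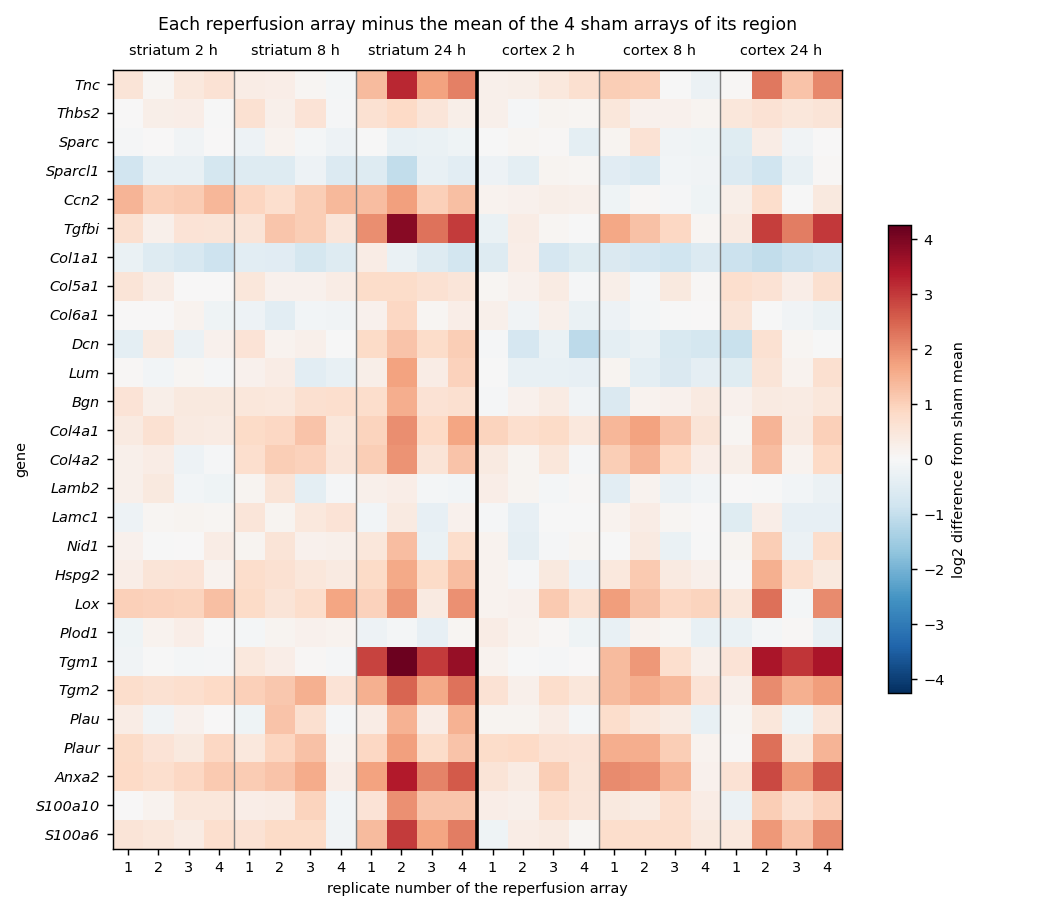
Log2 difference of each of the 24 reperfusion arrays from the average of its region's 4 sham arrays, for the 27 tested genes, with red higher and blue lower. Striatum 24 h replicate 2 is the reddest column, with a median of 1.60 over the genes, and cortex 24 h replicate 1 is pale beside replicates 2 and 4.

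Markers of macrophages, neutrophils and monocytes rose at 24 h, as did genes of the set. The lists do not part macrophages that came with the blood from those resident in brain. Of all genes, 14.7% rose and 16.2% fell in striatum at 24 h, and 15.7% rose and 17.6% fell in cortex. Of 7 macrophage markers tested, 6 rose at 24 h in each region, with a median change of 2.43 in striatum and 1.55 in cortex, and Mrc1 did not pass. Their summed signal was 1860 to 5300 in striatum at 24 h and 206 to 252 in sham, and 408 to 3320 in cortex at 24 h and 212 to 274 in sham. Within cortex at 24 h it was 408, 3320, 1520 and 2910 on replicates 1 to 4, lowest on replicate 1 and next lowest on replicate 3, as were Tgm1, Tgfbi, Anxa2, Tnc, S100a6 and Tgm2. Of 7 neutrophil and monocyte markers tested, 6 rose in each region at 24 h, and on replicates 1 to 4 of cortex at 24 h their sum was 361, 8740, 997 and 5860. In sham cortex it was 252 to 533, and in striatum it was 1450 to 5310 at 24 h and 327 to 431 in sham. Msr1 and Cd163 of the macrophage list and Ly6g, Ccr2, Itgb2 and Mmp8 of the neutrophil and monocyte list did not pass the filter. The part of these cells in the changes of the matrix genes was not tested, and in whole tissue more cells of a type and more RNA per cell cannot be told apart.

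Endothelial markers rose in part: 5 of 7 tested did so at 24 h in each region, with a median of 0.59 in striatum and 0.57 in cortex. Their summed signal was 3060 to 4540 in striatum at 24 h against 2370 to 2530 in sham, and 2130 to 4070 in cortex at 24 h against 1820 to 2100 in sham. On replicates 1 to 4 of cortex at 24 h it was 2130, 3970, 3010 and 4070. It too was lowest on replicate 1 and next lowest on replicate 3, so that order was not particular to the macrophage, neutrophil and monocyte lists. Of 7 mural cell markers tested, 0 rose at 24 h in either region, and Vtn and Notch3 fell in cortex. Their summed signal was 772 to 1260 in striatum at 24 h and 939 to 1040 in sham, and 775 to 969 in cortex at 24 h and 857 to 1020 in sham. Among 10 fibroblast markers tested, which include Col1a1, Dcn and Lum of the set, 3 rose (Dcn, Lum and Aldh1a2) and 1 fell in striatum at 24 h, and 0 rose in cortex, where Pdgfra, Col1a1 and Ogn fell. The summed fibroblast signal was 4860 to 6950 in striatum at 24 h and 4140 to 4910 in sham, and 3450 to 4940 in cortex at 24 h and 3600 to 4880 in sham. Col1a2 and Col3a1, which define that cell type, were undetected on every array. Of 6 choroid plexus markers tested, 0 passed at 24 h, with a summed signal of 6450 to 16500 in striatum at 24 h and 10600 to 15300 in sham, and of 190 to 14700 in cortex at 24 h and 529 to 13100 in sham. Of 3 red cell markers tested, 1 rose in striatum and 0 in cortex, with a summed signal of 400 to 12500 in striatum at 24 h and 177 to 2160 in sham, and of 284 to 14400 in cortex at 24 h and 173 to 494 in sham.

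Markers of microglia, neurons, astrocytes and the oligodendrocyte lineage mostly fell or did not pass at 24 h. Of 10 microglial markers 1 rose and 5 fell in striatum, and 0 rose and 7 fell in cortex. Of 7 neuronal markers 4 fell in striatum and 5 in cortex. Of 10 astrocyte markers 1 rose and 3 fell in striatum, and 2 rose and 1 fell in cortex. Of 8 oligodendrocyte markers 1 rose in striatum, and 3 rose and 1 fell in cortex, and of 3 oligodendrocyte precursor markers 2 fell in striatum and 1 in cortex. The part of these cell types in the changes was not tested.

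Successive times were compared within each region. In striatum, 9 of 27 genes were higher at 24 h than at 8 h and 0 lower, against a background of 7.87% called (4.69% higher, 3.19% lower). Tgm1 was higher by 3.24 ± 0.39 (adjusted p = 1.1e-05, at least 5.16-fold), Tnc by 1.96 ± 0.35 (adjusted p = 0.000684, at least 3.45-fold), Tgfbi by 1.95 ± 0.39 (adjusted p = 0.00202) and S100a6 by 1.52 ± 0.27 (adjusted p = 0.000671). Anxa2, Tgm2, S100a10, Lum and Col6a1 were the others, by 0.60 to 1.41, and each of these 5 calls was lost without striatal 24 h replicate 2. The count was 4 without that array and 5 without striatal 8 h replicate 4.

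In cortex, 2 of 27 were higher at 24 h than at 8 h (background 8.11%, with 3.99% higher and 4.12% lower): Tgm1 by 1.63 ± 0.39 (adjusted p = 0.0117) and Col5a1 by 0.40 ± 0.13 (adjusted p = 0.0463). The Col5a1 call was lost under 14 of 18 alternatives, among them array weights (0.28, adjusted p = 0.238) and leaving out 24 h replicate 1 (0.35, adjusted p = 0.0915), 2 (0.0734) or 4 (0.134). The Tgm1 call was lost with each region fitted alone (adjusted p = 0.0592) and without 24 h replicate 4 (0.0639). The count was 7 without cortex 24 h replicate 1, where 12.1% of all genes were called, 0 without cortex 24 h replicate 4, and 1 without cortex 8 h replicate 1, 2 or 4. Between 2 h and 8 h, 0 of 27 passed in cortex (background 2.93%, with 1.46% higher and 1.48% lower; 5 with an unadjusted p under 0.05, as had 19.7% of all genes) and 0 in striatum (background 1.53%, with 0.718% higher and 0.813% lower; 2 with an unadjusted p under 0.05, as had 17.3% of all genes).

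The response of striatum was set against that of cortex at each time. No gene of the set passed: 0 of 27 at 2, 8 and 24 h, against 0%, 0% and 0.0633% of all genes (at 24 h, 0.0211% higher and 0.0422% lower), with 1, 3 and 4 at an unadjusted p under 0.05, where 6.41%, 7.89% and 8.6% of all genes had one. At 24 h the striatal change exceeded the cortical one for 25 of 27 genes, with a median difference of 0.54 and a range of -0.17 to 1.01. This rested in part on 1 array: without cortex 24 h replicate 1 it was 22 of 27, with a median of 0.21 and a range of -0.27 to 0.96. The difference was 0.77 for Tgm1 (95% interval -0.36 to 1.91) and 0.65 for Tgfbi (-0.48 to 1.79). Without that array it was 0.09 for Tgm1 (-0.64 to 0.81), 0.07 for Tgfbi (-0.81 to 0.95) and 0.02 for Anxa2 (-0.95 to 0.99), while that of Ccn2 was 0.96 (0.48 to 1.43, adjusted p = 0.116). At 8 h the median difference was -0.09, with 13 of 27 above 0, and without cortex 8 h replicate 4 it was -0.12, with 11 above 0. The genes share their arrays, and the low cortical arrays enter all 27 differences at once.

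**Figure D5:**
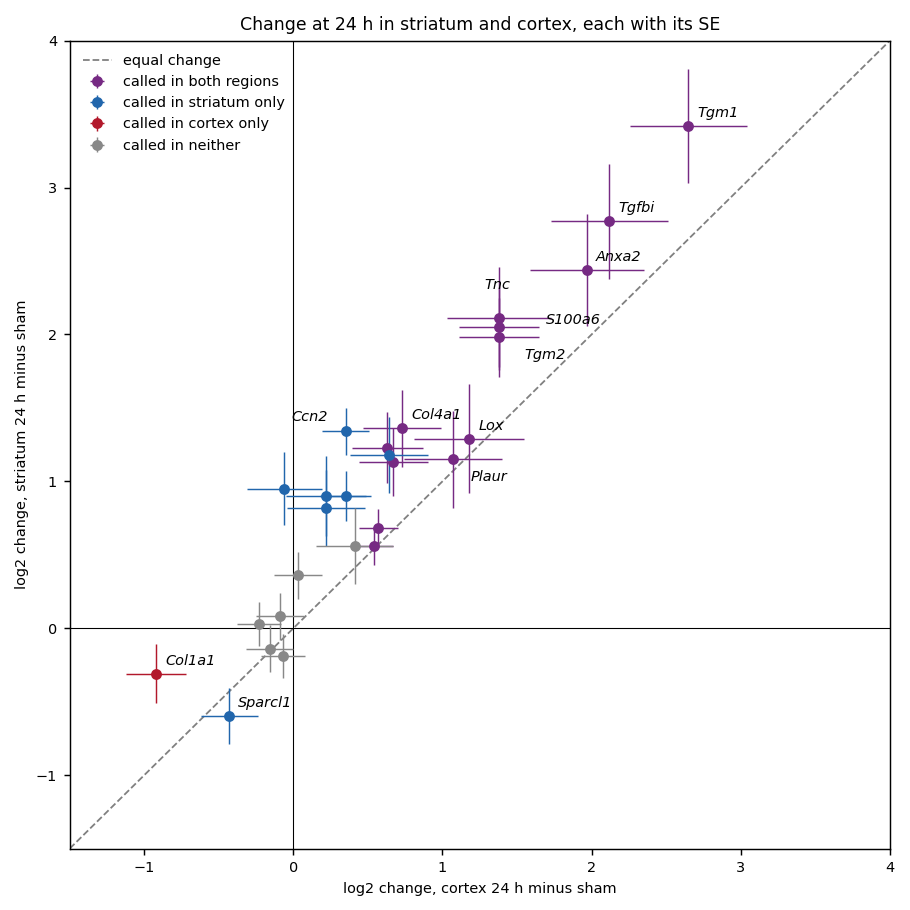
Change at 24 h against sham in striatum (vertical) and in cortex (horizontal), in log2 units with SE, for the 27 tested genes; colours show in which region a gene passed and the dashed line marks equal change. Most points lie above the line, by a median of 0.54 (0.21 without cortex 24 h replicate 1), and Tgm1 and Tgfbi lie farthest from the origin.

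In sham mice 5 of 27 genes differed between regions, 2 higher and 3 lower in striatum, against 34% of all genes (17.4% higher and 16.6% lower). The regions lay on separate slides, so region and slide cannot be told apart in these differences. Besides Sparc and Ccn2, Sparcl1 was higher in striatum by 0.49 ± 0.19 (adjusted p = 0.0481), a call lost without any of cortex sham replicates 1 to 3 (adjusted p = 0.064 to 0.169) or striatal sham replicates 1 to 3 (0.0623 to 0.194), with scaling to the 75th percentile (0.0692) and without the detection filter (0.0857). Col6a1 was lower by 0.66 ± 0.16 (adjusted p = 0.00176), with -0.77 through its second probe. For Col5a1 the fitted difference of -0.46 passed (adjusted p = 0.00573), but 0 of 8 arrays detected it, so no difference was measured. With the slide as a block it was -0.35 (adjusted p = 0.108). The regions share no slide, so a block cannot adjust this comparison, and that value refers to the first slide of each region.

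Related genes outside the set, taken from lists drawn up with earlier results of these data known, were counted the same way. Over all genes the median change at 24 h was -0.03 in striatum and -0.01 in cortex. Of all genes, 14.7% rose and 16.2% fell in striatum at 24 h, and 15.7% rose and 17.6% fell in cortex. Of 13 collagen-processing genes tested, 6 rose and 1 fell in striatum at 24 h, and 4 rose and 2 fell in cortex, with a median change of 0.35 in striatum and 0.15 in cortex. Bmp1, the protease that trims procollagen, rose by 1.44 ± 0.17 in striatum (adjusted p = 1.34e-06) and by 1.17 ± 0.17 in cortex (adjusted p = 2.08e-05). Plod3, a lysine hydroxylase, rose by 1.05 ± 0.16 in striatum (adjusted p = 2.76e-05) and by 0.91 ± 0.16 in cortex (adjusted p = 0.000109). Loxl1, a lysyl oxidase of elastic fibres, rose by 1.16 ± 0.30 in striatum (adjusted p = 0.00368), while P4ha1, a collagen prolyl hydroxylase, fell by 0.91 ± 0.22 there (adjusted p = 0.00244) and fell by 0.73 ± 0.22 in cortex (adjusted p = 0.0123).

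Of 14 matrix receptors tested, 5 rose and 2 fell in striatum at 24 h, and 5 rose and 0 fell in cortex, with a median change of 0.26 in striatum and 0.19 in cortex. Cd44, the hyaluronan receptor, rose by 1.84 ± 0.33 in striatum (adjusted p = 0.000142) and at least 1.69-fold in cortex (fitted log2 1.14 ± 0.33, adjusted p = 0.00908). Itga5, a chain of the fibronectin receptor, rose at least 1.23-fold in striatum (fitted log2 1.04 ± 0.28, adjusted p = 0.00638). Itgb4, a laminin-binding integrin chain, rose in cortex by 0.65 ± 0.14 (adjusted p = 0.00121), and Gpc1, a cell-surface heparan sulphate proteoglycan, rose by 0.42 ± 0.11 in striatum (adjusted p = 0.00367) and 0.49 ± 0.11 in cortex (adjusted p = 0.00107).

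Of 13 other matricellular and fibre-associated genes, 7 rose and 0 fell in striatum at 24 h, and 3 rose and 2 fell in cortex, with a median change of 0.49 in striatum and 0.22 in cortex. Spp1, or osteopontin, rose by 1.70 ± 0.49 in striatum (adjusted p = 0.00906) and by 2.52 ± 0.49 in cortex (adjusted p = 0.000324). Ccn1, a close relative of Ccn2, rose at least 1.88-fold in striatum at 24 h (fitted log2 1.85 ± 0.51, adjusted p = 0.00691) and at least 2.07-fold in cortex at 2 h (fitted log2 1.72 ± 0.51, adjusted p = 0.047). Ecm1 rose in striatum by 1.47 ± 0.26 (adjusted p = 0.000147), and Ogn, the small proteoglycan osteoglycin, fell by 1.29 ± 0.32 in cortex (adjusted p = 0.00305).

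Of 12 other annexins and S100 genes, 6 rose at 24 h in each region, while 1 fell in striatum and 3 in cortex, with a median change of 0.35 in striatum and 0.38 in cortex. S100a8 and S100a9, which form the neutrophil protein calprotectin and stand also in the neutrophil and monocyte list, rose by 3.67 ± 0.92 and 2.93 ± 0.85 in striatum (adjusted p = 0.00313 and 0.0101) and by 3.42 ± 0.92 and 2.76 ± 0.85 in cortex (adjusted p = 0.00536 and 0.0142). S100a11 rose by 2.25 ± 0.34 in striatum (adjusted p = 2.6e-05) and 1.61 ± 0.34 in cortex (adjusted p = 0.000765). S100a5 was at least 1.77-fold lower in cortex (fitted log2 -1.99 ± 0.44, adjusted p = 0.00102).

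Genes of TGF-beta signalling went both ways: of 20 tested, 6 rose and 3 fell in striatum at 24 h, and 3 rose and 5 fell in cortex. The median change was 0.11 in striatum and -0.10 in cortex. The share that fell in striatum and the share that rose in cortex were close to those of all genes (16.2% and 15.7%). Id1, a target of BMP signals, rose by 0.99 ± 0.24 in striatum (adjusted p = 0.00263) and 1.00 ± 0.24 in cortex (adjusted p = 0.00233). Tgif1, a repressor of the pathway, rose at least 1.23-fold in striatum (fitted log2 1.19 ± 0.29, adjusted p = 0.00256). Ltbp4, which holds latent TGF-beta in the matrix, fell by 0.52 ± 0.12 in striatum (adjusted p = 0.00188) and fell by 0.72 ± 0.12 in cortex (adjusted p = 7.49e-05). Nrros, which holds latent TGF-beta on microglia, rose early, by 1.23 ± 0.16 in striatum (adjusted p = 8.89e-05) and by 0.62 ± 0.16 in cortex at 2 h (adjusted p = 0.0262). Tgfb1 of the set, which encodes the ligand, was detected on 2 of 32 arrays, 1 at 24 h in each region.

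Of 9 other basement membrane genes, 3 rose in striatum at 24 h and 1 rose and 1 fell in cortex (median change 0.33 and 0.08), and Col18a1, a vessel wall collagen, rose by 0.78 ± 0.24 in striatum (adjusted p = 0.0162) and 0.87 ± 0.24 in cortex (adjusted p = 0.00748). Among 16 genes of the perineuronal and interstitial matrix of brain, 2 rose and 3 fell in striatum at 24 h and 4 rose and 4 fell in cortex (median change -0.18 and -0.23). Bcan, or brevican, fell by 0.79 ± 0.13 in striatum (adjusted p = 8.56e-05) and fell by 0.49 ± 0.13 in cortex (adjusted p = 0.00599), and Hapln2, a link protein of nodes of Ranvier, rose in cortex by 1.01 ± 0.23 (adjusted p = 0.00153). F13a1, the 1 other transglutaminase tested, which makes the clot-crosslinking factor XIII, rose in striatum by 1.35 ± 0.30 (adjusted p = 0.00118), and its change in cortex was 0.73 (adjusted p = 0.0607).

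Genes whose 8 group means followed those of the 4 most changed members most closely were sought among 880 genes with a standard deviation over groups of at least 0.5. For Tgm1 they were Mmp3 (r = 0.996), Ncf4 (0.992) and Plin2 (0.99). Those of Tgfbi were Usp18 (0.994), Irf9 (0.991) and Fpr2 (0.99), and those of Anxa2 were Glipr2 (0.994), Cxcl16 (0.988) and Dab2 (0.986). Tnc came closest to Ccl5 (0.982), Mtmr11 (0.981) and Cd52 (0.972). These Pearson correlations are over 8 points that share arrays, and are descriptions.

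The remaining genes of the set gave no result at this signal. Anxa1, Loxl2 and Vcan were detected on 0 of 32 arrays. Thbs1, encoding thrombospondin 1, was detected on 3, namely 2 in striatum and 1 in cortex at 24 h, where its level ran from 4.64 to 6.85 in striatum and from 4.56 to 7.15 in cortex. For such genes an absence of signal above background does not show that the transcript was absent. Across all comparisons 67 calls were made for the set. Of these, 39 were kept under every alternative in which the gene was tested and with each array left out in turn. Among them were those of Tgm1, Tgfbi, Anxa2, Tnc, S100a6, Tgm2 and Thbs2 at 24 h in both regions. The 39 also include Col5a1 in striatum at 24 h, where no rise was measured. With detection required on all 4 arrays of a group, 56 of the 67 calls could be judged.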

How the data were processed

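Mouse cortex and striatum RNA was measured on 32 bead arrays, 4 in each of 8 groups. The members and all gene lists were chosen with earlier results of these data known. The deposited profile files hold intensities, the mean bead signal of each of 25697 probes, exported without normalization or background subtraction by BeadStudio 3.3.7, per the file headers. Beside each stands a detection value, a fraction equal to 1 minus the detection p-value, per the file headers. The authors' processed table, as deposited, gives for each probe a ratio to the average of the region's sham arrays. It served as an alternative, and how it was normalized is not given in the sources used here. Replicates are numbered here as in the labels, which name each array of the profile files. The processed table's replicate numbers run in the opposite order to those of the profile files (number 4 here is their number 1), as matching the values showed.

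Intensities were background-corrected with normexp on detection p (offset 16), quantile-normalized over 32 arrays and put on the log2 scale with neqc of limma 3.58.1 (R 4.3.3). A probe stayed in if 4 or more of the 32 arrays gave it a detection p below 0.01, which held for 12758, and of several probes of a gene the one with the highest mean was used, which left 9475 genes. Names came from RefSeq accessions for 23876 probes, current symbols for 728, synonyms for 709 and the array's own name for 384. One limma fit over 8 groups (lmFit, eBayes) gave every comparison, and p-values were adjusted with Benjamini-Hochberg per comparison, at a threshold of 0.05. Where a gene was undetected on every array of the dimmer group, the fold is given as a bound against the lowest detected signal of each of its arrays, or the gene's own where higher. No depth applies to arrays, and the 4 arrays per group limit the precision. The steps were tested on simulated data. The genes given array by array are those called with a change of at least 1 against sham. Of each related list up to 4 called genes with the largest change are named. Alternatives changed the normalization, background, filter, variance model, array weights, probes, slide block, region and animal grouping, and left out each array in turn.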

Additional observations from a re-analysis of the deposited data

Results flagged for a closer look

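In the 13 genes given array by array, 6 of 104 groups of 4 arrays held 1 array far from the other three, where about 1 in 20 groups would by chance. Tgm1 on cortex 24 h replicate 1 was at 5.27, against 7.73 to 8.16 on the others. S100a6 on cortex 8 h replicate 4 was at 8.68, against 9.01 to 9.02. The other 4 were Anxa2 on cortex sham replicate 4 (8.67, against 8.86 to 8.88), Hspg2 on cortex sham replicate 3 (6.37, against 5.74 to 5.84), Col4a1 on striatum 2 h replicate 2 (8.23, against 7.92 to 7.96) and Lox on striatum 2 h replicate 4 (6.08, against 5.75 to 5.80). Lox was near background on that array.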

How the results depend on the processing

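No called change of the 27 genes turned its direction under any alternative. Of 67 calls, 65 were kept with the replicate block or with scaling to the 75th percentile, 66 without background correction, 56 without the detection filter, 64 with a trended, robust spread, 62 with array weights and 66 with all probes. With the authors' values, 55 of 62 were kept, and 55 of 62 with each region fitted alone. With detection on all 4 arrays of a group 56 of 56 were kept, and the genes of the other calls were not tested there. Leaving out 1 array at a time kept 443 of 536 and lost 93. The cause of these losses was not tested.

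The counts of genes called moved by over 1.5 times as follows, with the share of all genes called in brackets for most. In cortex at 2 h against sham 1 was called with the authors' values (21.2%) and 3 with array weights, in place of 0. In striatum at 2 h it was 3 with the replicate block (8.2%), 3 with the authors' values (13.4%), 2 with the region fitted alone (5.32%) and 9 with array weights, in place of 1. In striatum at 8 h it was 5 without the filter and 14 with array weights, in place of 9. Of all genes, array weights called 17.5% in cortex at 2 h, 26.2% in striatum at 2 h and 31.5% in striatum at 8 h. For cortex 24 h against 8 h it was 1 without background correction (8.82%), with the authors' values (7.11%) and with a trended spread (8.41%), in place of 2. It was also 1 there without the filter, with detection on all 4 arrays of a group and with all probes, and 0 with the region fitted alone (4.73%). For striatum 8 h against 2 h it was 1 with array weights (4.04%), in place of 0. For the difference between regions it was 1 at 2 h with the authors' values (0.0106%), array weights (0.58%) or same-numbered arrays as one animal (0.0211%), in place of 0. It was also 1 at 8 h with one animal (0.148%), and 1 at 24 h with array weights (0.644%) or one animal (0.296%), each in place of 0. Without cortex 8 h replicate 4 and cortex 24 h replicate 1, a choice made after seeing the data, it was 11 in cortex at 8 h, 5 for cortex 8 h against 2 h, 4 for cortex 24 h against 8 h and 1 for the region difference at 8 h, where 23.2%, 5.78%, 12.7% and 0.232% of all genes were called.

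With each array left out in turn, the count ranged from 0 to 0 in cortex at 2 h, 4 to 9 at 8 h and 10 to 15 at 24 h, and from 1 to 3 in striatum at 2 h, 3 to 9 at 8 h and 17 to 22 at 24 h. It ranged from 0 to 0 for 8 h against 2 h in either region, from 0 to 7 for cortex and 4 to 9 for striatum 24 h against 8 h, from 0 to 0, 0 to 1 and 0 to 1 for the region differences at 2, 8 and 24 h, and from 4 to 5 between sham regions. The share of all genes called moved as well. Without cortex 24 h replicate 1 it was 36.9% in cortex at 24 h, against 33.3% with all arrays. These ranges therefore cannot be read as particular to the set.

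Deviations from group means, with no block fitted, correlated between same-numbered arrays at -0.27 to 0.35 in cortex (median 0.15) and at -0.27 to 0.33 in striatum (median 0.06). Between different-numbered arrays they correlated at -0.52 to 0.53 in cortex (median -0.06) and at -0.29 to 0.27 in striatum (median -0.04). These ranges overlap, and the numbers were not taken to pair the samples, so the replicate block stayed an alternative. The block lost Anxa2 in striatum at 8 h (adjusted p = 0.0569) and Col5a1 between sham regions (0.108). The regions share no slide, so the block could not adjust that comparison of sham regions. It added Col4a2 (0.0279) and Sparcl1 (0.0154) in cortex at 24 h, Col1a1 (0.0212) and Sparcl1 (0.0163) in striatum at 2 h, Hspg2 (0.0423) and Sparcl1 (0.0108) in striatum at 8 h, and Col5a1 for striatum 24 h against 8 h (0.0438). It changed no other call. Genes at background can be given only as bounds, and signal near background limits Tgm1, Tnc, Lox, Plaur, Plau, Col1a1 and Col5a1.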
